A study of Mus musculus with 9 samples.

Results

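The insulin-like growth factor (IGF) axis was described through 10 genes: the ligands Igf1 and Igf2, the non-coding RNA H19, the receptors Igf1r and Igf2r, and the binding proteins Igfbp3, Igfbp4, Igfbp5, Igfbp6 and Igfbp7. They were taken by gene symbol from a table of 23018 genes, H19 by its Ensembl identifier (ENSMUSG00000000031), and all 10 passed the filter on low counts. The genes were selected on their levels and tissue differences in these same 9 libraries, with no threshold, so those values are given as a description, with no p-value for any of the 10. Counts of how many of them passed a threshold stand beside the share of all genes that did. Lymphatic endothelial cells lacking CD45 and carrying CD31 and podoplanin were sorted from meninges, diaphragm or skin. All donors were male wild-type C57BL/6J mice of 10 weeks that had no treatment. Each tissue gave 3 libraries, 9 in all. The labels do not say whether a library is 1 animal or a pool, and the p-values below reflect library-to-library spread, which may be technical. The study asked how lymphatic endothelium of the membranes around the brain compares with that of peripheral tissues.

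IGF1 and IGF2 are small secreted hormones related to insulin that drive growth and survival through the receptor tyrosine kinase IGF1R. IGF2R, which is also the cation-independent mannose 6-phosphate receptor, takes IGF2 up for degradation and does not signal growth. Binding proteins hold the ligands outside the cell and set how much of them reaches a receptor. Igf2 and H19 are neighbours on mouse chromosome 7, have enhancers in common and are imprinted in opposite senses. In most tissues, but not in all, Igf2 is expressed from the paternal and H19 from the maternal copy. Counts per gene do not tell the copies apart. In the rodent brain after birth, the leptomeninges and the choroid plexus are known as sites where Igf2 stays on.

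Total counts per library ran from 26075366 to 34592850. The 8 lymphatic markers, among them the transcription factor gene Prox1 and the VEGF-C receptor gene Flt4, had counts in every tissue, and their summed level was 5270 to 12820 CPM in meninges, 11190 to 16140 CPM in diaphragm and 16080 to 16370 CPM in skin. CPM is a gene's read count scaled to a common library size, in counts per 1000000 reads, after TMM (trimmed mean of M values) correction of the library sizes. The 10 fibroblast markers summed to 1384, 8006 and 7846 CPM in the 3 meningeal libraries, 663 to 1446 CPM in diaphragm and 112 to 1082 CPM in skin. Mesothelial markers reached 1239 CPM in Diaphragm replicate 1 and 41.0 and 108 CPM in the other diaphragm libraries, with 18.5 CPM or less in meninges and 0.0387 CPM or less in skin. Other marker lists differed between tissues too. The 10 skeletal muscle markers summed to 638.5, 1169 and 446 CPM in Diaphragm replicates 1 to 3. They summed to 22.7 to 36.9 CPM in meninges and 81.2 to 269 CPM in skin. Among them, Pax7 had 288, 164.5 and 91.9 CPM in the diaphragm libraries, no count in meninges and 1.99 CPM or less in skin. The 9 mural cell markers summed to 533, 1127 and 1343 CPM in Meninges replicates 1 to 3, 298 to 499 CPM in diaphragm and 39.3 to 297 CPM in skin, and the 5 bone markers in the table to 183, 926 and 597 CPM, 2.21 to 3.62 CPM and 0.271 to 13.4 CPM. The 11 meningeal fibroblast markers summed to 113, 438 and 358 CPM in the meningeal libraries, 16.3 to 77.8 CPM in diaphragm and 55.3 to 97.1 CPM in skin. Of the 11, 8 had no count in any diaphragm library, and 8 had none in any skin library. A single marker, Foxc2, made up most of the skin sums, at 71.48, 51.84 and 97.02 CPM in Skin replicates 1 to 3. Foxc2 had 47.95, 5.832 and 75.96 CPM in Diaphragm replicates 1 to 3 and 0.72, 10.06 and 24.21 CPM in Meninges replicates 1 to 3. The 11 blood endothelial markers summed to 3390, 1347 and 1985 CPM in the meningeal libraries, 1501 to 2234 CPM in diaphragm and 974 to 1256 CPM in skin. Genes within that list differed in direction. Kdr averaged 417, 759 and 620 CPM in meninges, diaphragm and skin, and Emcn 85.4, 180 and 337 CPM. By contrast, Plvap averaged 215, 21.6 and 10.8 CPM in the same order, and Esm1 81.0, 0.258 and 0 CPM. The part of these cell types in the levels of Igf2, H19, Igfbp4 and Igfbp7 was not tested.

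Igf2 was the most graded of the ligands across tissues, at 579, 707 and 1216 CPM in Meninges replicates 1 to 3, 321, 139 and 159.5 CPM in Diaphragm replicates 1 to 3, and 75.3, 51.4 and 47.6 CPM in Skin replicates 1 to 3. Every meningeal library lay above every diaphragm library, and every diaphragm library lay above every skin library. The mean was 834 ± 337 CPM in meninges, 206.5 ± 99.9 CPM in diaphragm and 58.1 ± 15.0 CPM in skin (SD, n = 3 each). The log2 fold change of Igf2 was 2.01 (SE 0.42) in meninges against diaphragm, 3.84 (SE 0.45) in meninges against skin and 1.83 (SE 0.42) in diaphragm against skin. Meninges replicate 1, which had the lowest fibroblast and the highest lymphatic and blood endothelial marker sums of the meningeal libraries, had the lowest Igf2 of the 3, at 579 CPM. That library also exceeded all 6 peripheral libraries in the sums of meningeal fibroblast, mural, bone and blood endothelial markers given above. In sorted bulk RNA such as this, more cells that express a gene and more RNA of it per cell cannot be told apart. Reads of Igf2 may include other transcripts, since in the GENCODE M21 annotation a locus named Gm49394 covers 62.8% of its exon bases on the same strand and has no row of its own here.

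H19 followed the same order of tissues. It had 212, 470 and 481 CPM in Meninges replicates 1 to 3, 43.1, 64.5 and 53.1 CPM in the diaphragm libraries, and 27.2, 4.34 and 4.71 CPM in the skin libraries. The 3 ranges did not touch one another, and Skin replicate 1 was the highest of its tissue. The log2 fold change was 2.86 (SE 0.68) for meninges against diaphragm and 5.0 (SE 0.75) for meninges against skin. Between diaphragm and skin it was 2.15 (SE 0.66), and 3.56 without Skin replicate 1. Without that library the meninges-to-skin value was 6.42. Per kilobase of exon, H19 stood at 0.853, 1.54 and 0.92 of the Igf2 level in Meninges replicates 1 to 3, at 0.312, 1.08 and 0.774 in the diaphragm libraries and at 0.842, 0.196 and 0.23 in the skin libraries. The ratio of the 2 neighbours in diaphragm thus overlapped that in meninges and that in skin, while both levels did not overlap. Between meninges and skin the ratios were narrowly apart, at 0.853 or more against 0.842 or less.

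**Figure D1:**
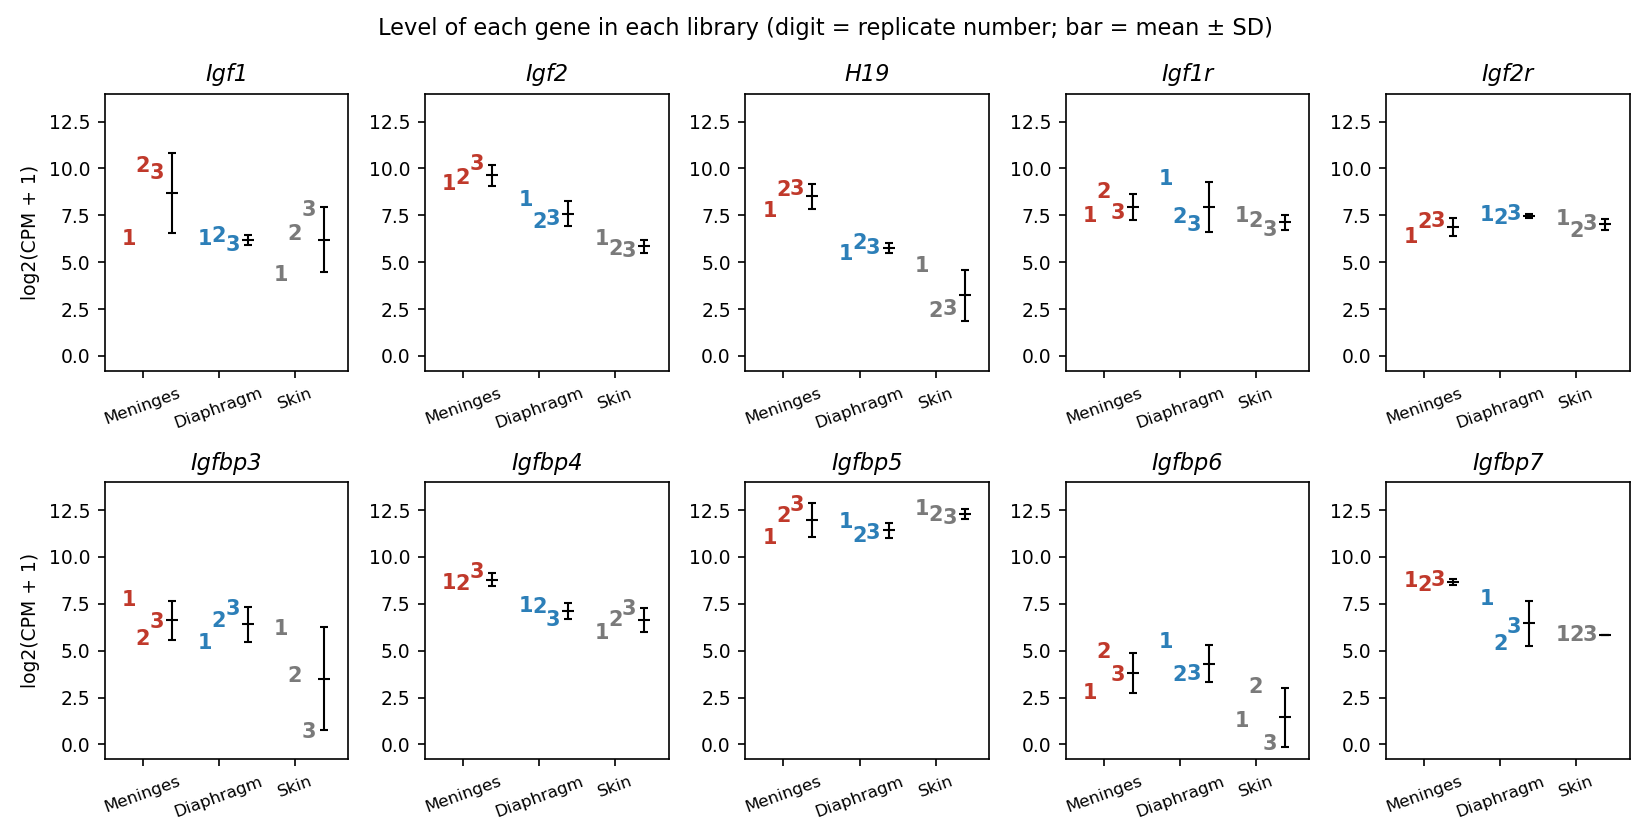
Level of each of the 10 genes as log2(CPM + 1), with meninges, diaphragm and skin from left to right; each digit is 1 library with its replicate number, and the bar is the mean ± SD of 3 libraries. Igf2 and H19 step down from meninges to diaphragm to skin without overlap, Igf1 is high only in Meninges replicates 2 and 3, and Igf1r is high in Diaphragm replicate 1.

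H19 RNA is also the precursor of a microRNA, and an intron of Igf2 holds another. Their mature sequences are shown because their host transcripts are the members whose libraries stood apart in all 3 comparisons. The seed, bases 2 to 8, is in capitals (RefSeq, GRCm38.p6, minus strand of chromosome 7).
mmu-miR-675-5p (chr7:142577112-142577133): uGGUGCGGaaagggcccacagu
mmu-miR-675-3p (chr7:142577078-142577099): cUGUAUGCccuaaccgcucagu
mmu-miR-483-5p (chr7:142654968-142654989): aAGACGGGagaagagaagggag
mmu-miR-483-3p (chr7:142654932-142654952): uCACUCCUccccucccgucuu
The 4 seeds all differ. The mature microRNAs were not measured in these libraries, which count long transcripts, and neither microRNA gene has a row in the table.

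Igf1, the ligand made in the liver under growth hormone and locally by mesenchymal cells, did not share this pattern. It stood at 75.2, 1105 and 878 CPM in Meninges replicates 1 to 3, 74.2, 83.4 and 59.0 CPM in the diaphragm libraries and 19.1, 91.4 and 218 CPM in the skin libraries. Meninges replicate 1 lay within the diaphragm range and below Skin replicates 2 and 3. Its log2 fold change was 3.25 (SE 0.88) in meninges against diaphragm and 2.65 (SE 0.86) in meninges against skin. With Meninges replicate 1 alone standing for the meninges these became 0.06 and -0.56. Igf1 was 3.88 and 3.54 higher on the log2 CPM scale in Meninges replicates 2 and 3 than in replicate 1, where the median of the 10 fibroblast markers was 2.61 and 2.5 higher and that of the 7 tested meningeal fibroblast markers 3.06 and 2.79 higher. Among the skin libraries, replicate 1 had the lowest Igf1 and the lowest fibroblast marker sum, 112 CPM against 1082 and 767 CPM. The 11 macrophage markers found in the table summed to 42.1, 29.3 and 46.3 CPM in Meninges replicates 1 to 3. Their sums were 44.1, 125.7 and 29.2 CPM in Diaphragm replicates 1 to 3 and 0.387, 29.1 and 2.24 CPM in Skin replicates 1 to 3. The part of these other cells in the Igf1 level was not tested.

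**Figure D2:**
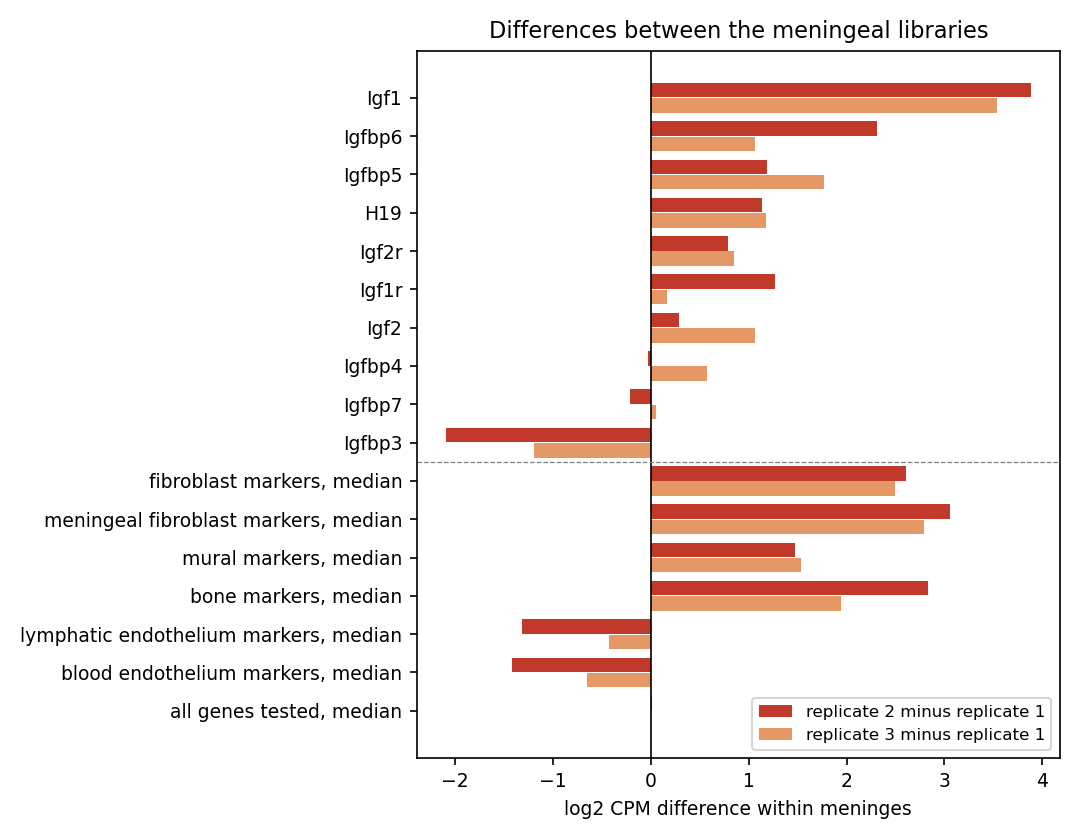
Difference in log2 CPM between Meninges replicates 2 or 3 and replicate 1, for the 10 genes (above the dashed line) and for the medians of marker lists and of all genes tested (below it). Igf1, at 3.88 and 3.54, moves further than the medians of the fibroblast (2.61 and 2.5) and meningeal fibroblast lists (3.06 and 2.79), Igf2, Igfbp4 and Igfbp7 move by 1.07 or less, and Igfbp3 moves the other way.

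The balance of the 2 ligands differed between libraries accordingly. Per kilobase, Igf1 was at 0.0751, 0.903 and 0.417 of Igf2 in Meninges replicates 1 to 3, at 0.133, 0.347 and 0.214 in the diaphragm libraries, and at 0.146, 1.03 and 2.65 in the skin libraries. Per kilobase, Igf2 was thus the higher of the ligands in all meningeal and diaphragm libraries and in Skin replicate 1. Without length scaling, Igf1 was the higher in Meninges replicate 2, at 1105 CPM against 707 CPM.

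Both receptors were present in each library at moderate levels. Igf1r, the signalling receptor, measured 178, 429 and 200.0 CPM in Meninges replicates 1 to 3, 701, 169.6 and 125 CPM in the diaphragm libraries and 179, 148.5 and 103 CPM in the skin libraries. The tissues overlapped, and Diaphragm replicate 1, the library with 1239 CPM of mesothelial markers, held the highest value of the 9. The log2 fold change of Igf1r was -0.30 (SE 0.59) in meninges against diaphragm, 0.91 (SE 0.59) in meninges against skin and 1.21 (SE 0.59) in diaphragm against skin. Without Diaphragm replicate 1 the first was 0.87 and the third 0.04. Whether the mesothelial RNA has a part in that library's Igf1r level was not tested.

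Igf1r is a known target of the H19-borne microRNA in the mouse placenta, so its 3′ untranslated region was searched for matches to the seeds. The longest annotated one (7267 bases, transcript of GENCODE M21) held 2 matches to the seed of miR-675-3p, with the letters GCAUACA, and no match to the seeds of miR-675-5p (CCGCACC), miR-483-3p (AGGAGUG) or miR-483-5p (CCCGUCU). Of 521 untranslated regions within 25% of that length, 34.9% held GCAUACA, 5.76% CCGCACC, 42.6% AGGAGUG and 8.83% CCCGUCU. The 2 matches are shown with 10 bases on each side and the 7 matching bases in capitals, written as DNA.
Igf1r bases 495 to 521: tcatcaccccGCATACAcctgcctgac
Igf1r bases 1254 to 1280: tgaaacatttGCATACAcatcgtcttt
H19 was lowest in skin, where Igf1r was also lowest by mean, and the Igf1r ranges of meninges and skin overlapped. Without Diaphragm replicate 1 the log2 fold change of Igf1r in diaphragm against skin was 0.04. Any effect of the microRNA on Igf1r was not tested.

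Igf2r, the clearing receptor, spanned the narrowest relative range of the 10 genes over the 9 libraries. It had 80.0, 138.5 and 144 CPM in Meninges replicates 1 to 3, 181, 161.6 and 189 CPM in the diaphragm libraries and 157, 102 and 132 CPM in the skin libraries. The 3 diaphragm libraries lay above all others, by little: the log2 fold change was -0.55 (SE 0.40) in meninges against diaphragm and 0.44 (SE 0.40) in diaphragm against skin. Between meninges and skin it was -0.11 (SE 0.40), with overlap. Airn, the antisense RNA that silences the paternal Igf2r copy in mouse embryos and was singled out after its values were seen, averaged 56.1, 58.7 and 85.9 CPM in meninges, diaphragm and skin, and its libraries overlapped in each pair of tissues.

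Among the binding proteins, Igfbp7 and Igfbp4 resembled Igf2 in their meningeal levels. Igfbp7, a secreted matrix protein of vessels that binds IGFs only weakly, was at 420, 365 and 436 CPM in Meninges replicates 1 to 3, 213, 40.5 and 76.7 CPM in the diaphragm libraries and 55.8, 55.8 and 56.4 CPM in the skin libraries. All meningeal libraries were above all peripheral ones, and the diaphragm and skin ranges overlapped. The log2 fold change of Igfbp7 was 1.89 (SE 0.52) in meninges against diaphragm, 2.86 (SE 0.54) in meninges against skin and 0.97 (SE 0.50) in diaphragm against skin. Without Diaphragm replicate 1, the highest of its tissue, the first was 2.79 and the third 0.07. In the GENCODE M21 annotation 7.03% of the exon bases of Igfbp7 overlap Polr2b on the other strand, and reads of the 2 genes there cannot be told apart without strand.

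Igfbp4, a binding protein that inhibits IGF action until it is cleaved, stood at 388, 380 and 577 CPM in the meningeal libraries, 165, 161 and 99.5 CPM in the diaphragm libraries and 61.5, 98.8 and 150.4 CPM in the skin libraries. The meningeal libraries were again above the other 6, while diaphragm and skin overlapped. Its log2 fold change was 1.66 (SE 0.41) against diaphragm and 2.11 (SE 0.42) against skin. 

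Igfbp5, which binds to extracellular matrix and carries IGFs in the blood together with the acid-labile subunit, had the highest level per kilobase of the 10 genes in each tissue. It measured 2049, 4690 and 6966 CPM in Meninges replicates 1 to 3, 3707, 2240 and 2479 CPM in the diaphragm libraries and 6033, 4817 and 4311 CPM in the skin libraries. Meninges overlapped both other tissues, and each diaphragm library was below each skin library, with a log2 fold change of -0.85 (SE 0.35). For meninges the log2 fold change was 0.70 (SE 0.35) against diaphragm and -0.15 (SE 0.35) against skin. With Meninges replicate 1 alone these were -0.46 and -1.33.

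Igfbp3, the main carrier of IGFs in blood, varied widely within tissues. It had 209, 49.3 and 91.6 CPM in Meninges replicates 1 to 3, 41.3, 95.6 and 151 CPM in the diaphragm libraries and 70.1, 11.7 and 0.594 CPM in the skin libraries. Relative to Meninges replicate 1, its log2 CPM differed by -2.09 in replicate 2 and -1.19 in replicate 3, where the median difference was -1.32 and -0.43 for the 8 lymphatic markers and -1.42 and -0.65 for the 11 blood endothelial markers. Their part in the Igfbp3 level was not tested. The log2 fold changes were 0.28 (SE 1.07), 2.09 (SE 1.11) and 1.80 (SE 1.10) for meninges against diaphragm, meninges against skin and diaphragm against skin, all with overlap between libraries.

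Igfbp6, a binding protein with a preference for IGF2, was low in every library. Its values were 5.79, 29.1 and 12.2 CPM in the meningeal libraries, 43.8, 12.2 and 12.4 CPM in the diaphragm libraries and 1.35 and 7.51 CPM in Skin replicates 1 and 2, with no count in Skin replicate 3. Diaphragm and skin did not overlap, and Diaphragm replicate 1 was again the highest of the 9. The log2 fold change was -0.54 (SE 1.61) in meninges against diaphragm, 2.41 (SE 1.69) in meninges against skin and 2.95 (SE 1.73) in diaphragm against skin.

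**Figure D3:**
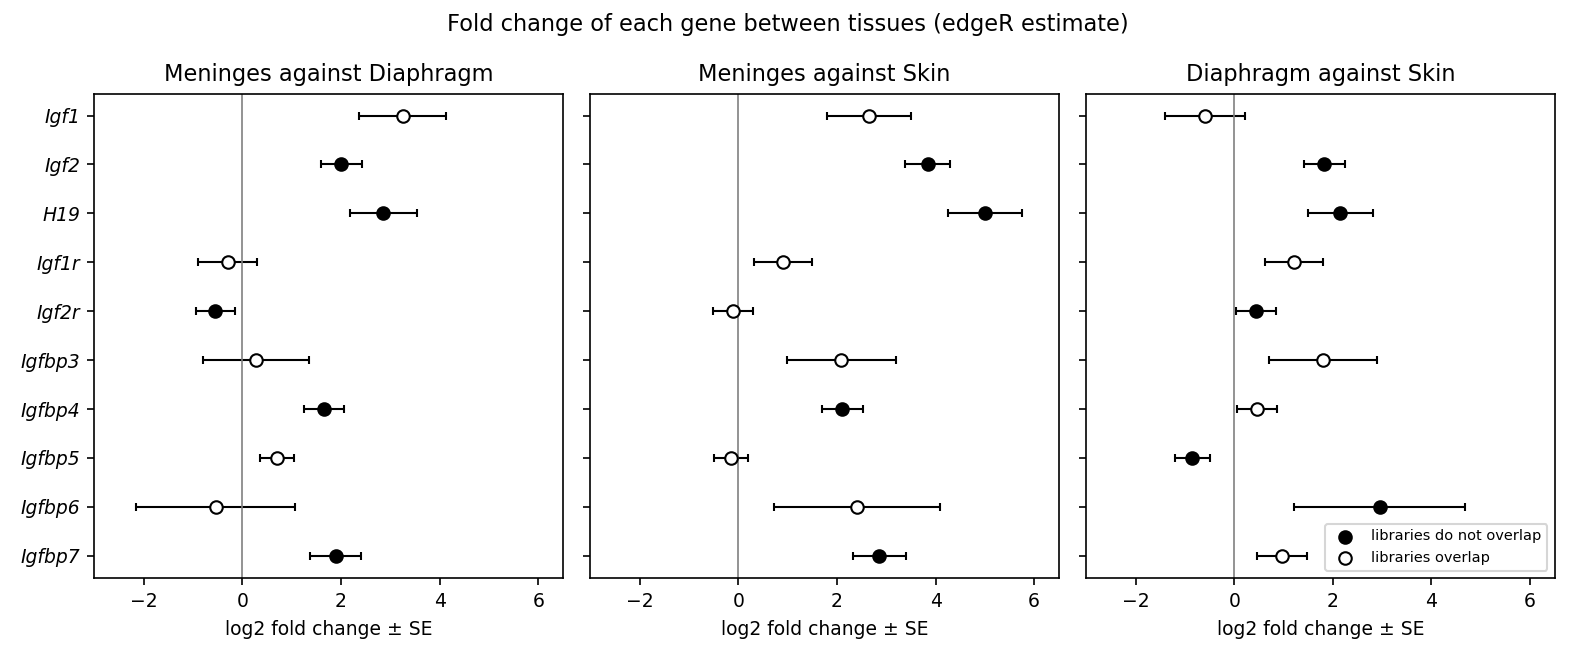
Log2 fold change ± SE of each gene from the edgeR fit, with the first-named tissue over the second; filled points mark genes whose libraries do not overlap between the 2 tissues. Igf2 and H19 are to the right of 0 and filled in all 3 comparisons, Igfbp4 and Igfbp7 in both meningeal ones, and Igf2r stays within 0.55 of 0.

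Read against all 14831 genes tested, 4 of the 10 genes (Igf2, H19, Igfbp4 and Igfbp7) were among those called higher in meninges than in skin at an adjusted p under 0.05, where 1.32% of all genes were called, 0.748% as higher. No member was called between meninges and diaphragm, where 0.344% of genes were called, or between diaphragm and skin, where 0.0405% were (edgeR quasi-likelihood test, Benjamini-Hochberg adjusted). At an unadjusted p under 0.05 the counts were 5 and 3, beside 10.1% and 11.8% of all genes, and the DESeq2 Wald test called 5 and 2, beside 4.48% and 5.91% of the genes it gave an adjusted p. The median log2 fold change of the 10 genes was 1.18, 2.26 and 1.09 in the 3 comparisons, beside 0.05, 0.08 and 0.01 for all genes. Libraries did not overlap for 5, 4 and 5 of the 10, beside 17.1%, 20.2% and 13.5% of all genes. Since the genes were picked with these values known, nothing is read from these counts. In meninges against skin, Igfbp7 was not called when Meninges replicate 3, Skin replicate 1 or Skin replicate 3 was left out. Igfbp4 was not called there when Meninges replicate 2 or 3 or Skin replicate 1 or 2 was left out. When Meninges replicate 1 alone stood for the meninges, Igf2 was the 1 member called against skin.

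Length-scaled levels put the genes in order within a tissue. In meninges Igfbp5 stood at 761 ± 410 CPM per kilobase of exon and Igfbp7 at 336.5 ± 30.9, followed by H19 (158 ± 61.7), Igf2 (146 ± 58.8), Igfbp4 (101.5 ± 25.3), Igf1 (69.3 ± 54.6), Igfbp3 (37.3 ± 26.5), Igf1r (16.0 ± 8.28), Igfbp6 (14.1 ± 10.8) and Igf2r (13.0 ± 3.81; SD, n = 3). Only Igfbp7 and H19 were neighbours without overlap in that order. Skin had Igfbp5 at 841 ± 147 CPM per kilobase and Igfbp7 at 46.3 ± 0.309, neither overlapping the next gene, and the rest at 23.5 or less. In diaphragm Igfbp5 was at 468 ± 131 and Igfbp7 at 90.9 ± 75.0, and Igf1 came last at 7.29 ± 1.24. Among 14787 genes ranked by this level, Igf2 was 75th in meninges, 668th in diaphragm and 3673rd in skin, and H19 was 70th, 1436th and 6234th. Igfbp5 kept places 18, 24 and 17.

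The make-up of the binding protein transcripts differed between tissues through these levels. Igfbp5 held 40.0%, 64.4% and 68.0% of the summed length-scaled level of Igfbp2 to Igfbp7 in Meninges replicates 1 to 3, 69.9%, 77.0% and 73.5% in the diaphragm libraries and 92.3%, 90.8% and 89.9% in the skin libraries. Igfbp7 held 40.7%, 24.9% and 21.1% in the meningeal libraries, 19.9%, 6.91% and 11.3% in the diaphragm libraries and 4.24%, 5.22% and 5.84% in the skin libraries. For both genes the ranges of the 3 tissues were apart. Length matters to these shares: without scaling, Igfbp7 averaged 8.54%, 3.13% and 1.09% in meninges, diaphragm and skin, against 28.9%, 12.7% and 5.1% with it. Igfbp4 made up 10.3%, 7.09% and 7.65% in meninges, 4.24%, 7.54% and 4.01% in diaphragm and 1.28%, 2.53% and 4.26% in skin. The summed level of Igf1 and Igf2 over that of the binding proteins was 0.127, 0.194 and 0.176 in the meningeal libraries, 0.0721, 0.0674 and 0.0602 in the diaphragm libraries and 0.0139, 0.0206 and 0.038 in the skin libraries, with no overlap between tissues. In RNA terms, ligand was thus highest relative to binding protein in meninges, and it was so in Meninges replicate 1 as well.

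**Figure D4:**
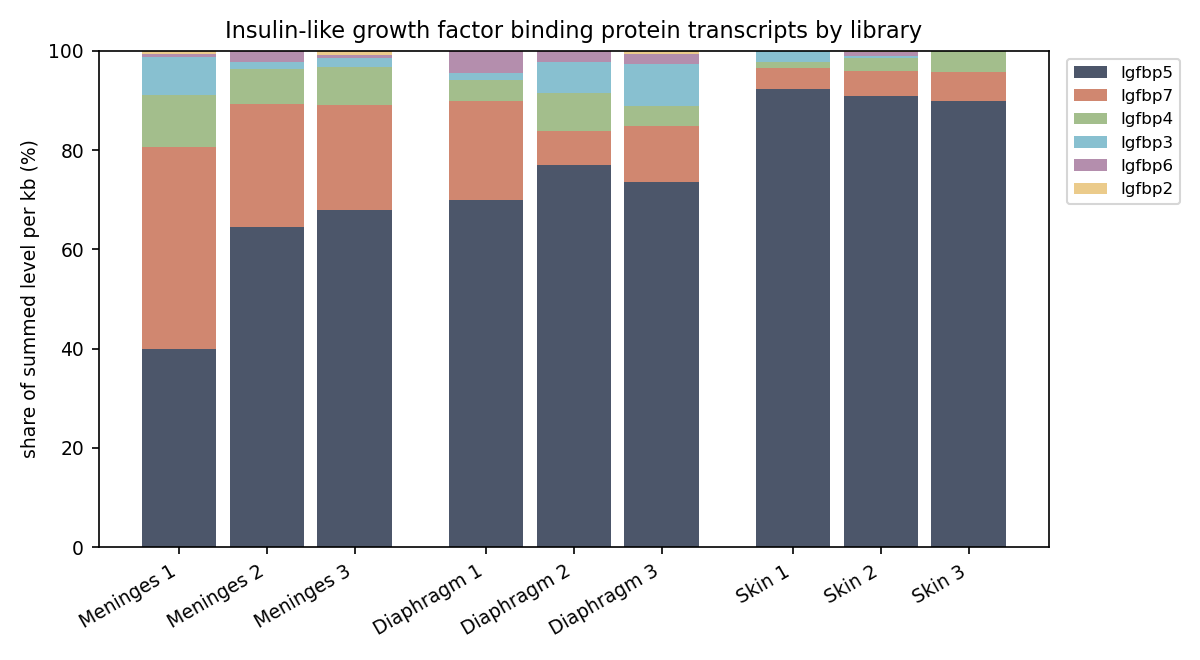
Share (%) of each binding protein gene in the summed CPM per kilobase of Igfbp2 to Igfbp7, 1 stacked bar per library. Igfbp5 fills 89.9% to 92.3% of each skin bar, and Igfbp7 reaches 21.1% to 40.7% in the meningeal bars.

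Igfbp7 was also the gene most like Igf2. Of 9478 genes whose log2 CPM averaged 3 or more, its mean-centred log2 CPM profile over the 9 libraries had the smallest root mean square difference from that of Igf2 (0.64). Next came Slc23a2, a vitamin C transporter gene (0.70), the lysosomal protease gene Ctsd (0.71), the secreted glutathione peroxidase gene Gpx3 (0.72) and Aagab (0.73). Ctsd, for example, measured 847, 642 and 940.2 CPM in the meningeal libraries, 246, 205 and 145.5 CPM in the diaphragm libraries and 159, 184 and 85.8 CPM in the skin libraries. For H19 the nearest were the elastic fibre gene Emilin1 (0.91), Gpx3 (0.95), 1810008I18Rik (0.97), Igf2 itself (0.99) and the protocadherin gene Pcdh7 (1.06). For Igf1 they were the receptor gene Neo1 (0.54), the atypical cadherin genes Fat4 (0.70) and Fat1 (0.75), Sesn3 (0.71) and the apolipoprotein gene Apod (0.72). Neo1 had 127, 849 and 639 CPM in Meninges replicates 1 to 3, the split between replicate 1 and the others that Igf1 showed.

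The promoters of Igf2, Igfbp7 and Igfbp4 are shown because these 3 protein-coding genes shared high meningeal levels. Each runs from 250 bases before to 50 after an annotated start (RefSeq, GRCm38.p6), with matches on either strand to the GC box GGGCGG and the TATA box TATAAA in capitals. Igf2 has 4 annotated starts, and the window shown is of the one nearest the 3′ end of the gene. Counts per gene do not tell which start was used.
Igf2 (chr7:142657447-142657746, minus strand): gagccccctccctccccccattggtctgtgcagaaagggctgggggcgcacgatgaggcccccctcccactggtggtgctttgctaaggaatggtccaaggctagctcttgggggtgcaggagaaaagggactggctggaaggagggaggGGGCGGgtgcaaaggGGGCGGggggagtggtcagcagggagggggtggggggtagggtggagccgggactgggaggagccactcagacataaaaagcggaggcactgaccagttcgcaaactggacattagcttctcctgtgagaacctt
Igfbp7 (chr5:77407996-77408295, minus strand): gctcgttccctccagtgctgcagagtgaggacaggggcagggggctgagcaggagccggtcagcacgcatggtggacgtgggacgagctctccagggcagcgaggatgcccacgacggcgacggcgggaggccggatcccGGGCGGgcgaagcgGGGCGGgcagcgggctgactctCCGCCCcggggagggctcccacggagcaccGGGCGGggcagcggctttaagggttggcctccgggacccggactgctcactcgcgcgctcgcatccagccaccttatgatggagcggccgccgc
Igfbp4 (chr11:99040994-99041293, plus strand): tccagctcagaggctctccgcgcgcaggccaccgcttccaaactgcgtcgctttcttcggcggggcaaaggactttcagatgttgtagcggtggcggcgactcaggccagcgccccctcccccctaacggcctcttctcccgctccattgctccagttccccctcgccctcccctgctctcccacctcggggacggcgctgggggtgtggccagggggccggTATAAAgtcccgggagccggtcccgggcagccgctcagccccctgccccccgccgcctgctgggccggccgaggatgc
The Igf2 window holds 2 GC boxes and no TATAAA, the Igfbp7 window 4 GC boxes and no TATAAA, and the Igfbp4 window no GC box and 1 TATAAA. Among 32851 windows of the same length over all annotated starts, 35.7% hold GGGCGG and 13.6% hold TATAAA. The windows hold 7, 33 and 27 CG pairs in the same order, where the median window holds 7. At the other Igf2 starts, which are not shown, the windows hold 0, 0 and 1 GC boxes, no TATAAA, and 2, 14 and 24 CG pairs.

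Of 53 further genes of the pathway, from insulin receptors and IGF-releasing proteases to the kinase cascade, 46 had a row and 39 were tested. In meninges against skin 1 of the 39 rose and none fell (edgeR, adjusted over all genes tested), and in the other comparisons none was called. At an unadjusted p under 0.05, 5 passed in meninges against diaphragm, 8 in meninges against skin and 5 in diaphragm against skin, where 10.1%, 13.8% and 11.8% of all genes did. DESeq2 called 3, 7 and 3 in the same order, beside 4.48%, 8.02% and 5.91% of the genes it gave an adjusted p. The median log2 fold change of the 39 was 0.61 in meninges against diaphragm, 0.33 in meninges against skin and 0.09 in diaphragm against skin, beside 0.05, 0.08 and 0.01 for all genes.

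The gene that rose was Insr, the insulin receptor, which also binds IGF2. It had 416, 167 and 178 CPM in Meninges replicates 1 to 3, 230.1, 141 and 58.1 CPM in the diaphragm libraries and 55.9, 38.0 and 24.3 CPM in the skin libraries. Each meningeal library exceeded each skin library, with a log2 fold change of 2.69 (SE 0.59, edgeR adjusted p = 0.0414). Leaving out each library in turn, it was called in 2 of 9 fits, those without Diaphragm replicate 1 or 3. In meninges against diaphragm its log2 fold change was 0.83 (SE 0.56, edgeR adjusted p = 0.754). Insr was highest in Meninges replicate 1, the library with the highest blood endothelial marker sum. That sum was 3390, 1347 and 1985 CPM in Meninges replicates 1 to 3, 2234, 1622 and 1501 CPM in the diaphragm libraries and 1256, 1122 and 974 CPM in the skin libraries. Genes within that marker list differed in direction, as given above. The part of blood endothelial RNA in the Insr difference was not tested.

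Of the 5 genes that act in or restrain the release of IGFs from binding proteins, none was called in any comparison (edgeR). At an unadjusted p under 0.05 the counts were 4, 2 and 1, beside 10.1%, 13.8% and 11.8% of all genes. DESeq2 called 3, 2 and 1, beside 4.48%, 8.02% and 5.91% of the genes it gave an adjusted p. Pappa, the protease that cleaves IGFBP4, had 90.9, 97.7 and 102 CPM in the meningeal libraries, 51.6, 8.79 and 20.9 CPM in the diaphragm libraries and 13.0, 20.5 and 60.2 CPM in the skin libraries. All meningeal values exceeded all others, and the log2 fold change was 1.84 (SE 0.79) against diaphragm and 1.63 (SE 0.79) against skin, without passing the test (edgeR adjusted p = 0.45 and 0.382). Stc1, whose product inhibits that protease, had 23.3, 1.72 and 20.2 CPM in the meningeal libraries, 60.3, 51.0 and 181.5 CPM in the diaphragm libraries and 143, 69.1 and 105 CPM in the skin libraries. Its meningeal values were below all others, with log2 fold changes of -2.69 (SE 0.85) and -2.81 (SE 0.86), and it did not pass either (edgeR adjusted p = 0.31 and 0.163).

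Of the 22 signalling genes tested, none was called in any comparison (edgeR). At an unadjusted p under 0.05, 1, 4 and 2 passed, beside 10.1%, 13.8% and 11.8% of all genes. DESeq2 called 0, 3 and 1, beside 4.48%, 8.02% and 5.91% of the genes it gave an adjusted p. The median log2 fold change of the 22 was 0.28, 0.45 and 0.24, beside 0.05, 0.08 and 0.01 for all genes. Nedd4, a ubiquitin ligase that acts on IGF1R signalling, averaged 1054 ± 151 CPM in meninges, 910.3 ± 84.4 CPM in diaphragm and 691 ± 40.5 CPM in skin (SD, n = 3 each). Grb10, an imprinted adaptor that restrains insulin and IGF receptors, was lower in meninges than in diaphragm by value, at 223, 308 and 231.5 CPM against 539.9, 569.9 and 453 CPM, with a log2 fold change of -1.03 (SE 0.31, edgeR adjusted p = 0.273). Ghr, the growth hormone receptor, averaged 108 ± 89.5, 45.3 ± 15.7 and 88.2 ± 54.3 CPM in meninges, diaphragm and skin, and Jak2, its kinase, 78.5 ± 23.5, 51.4 ± 29.0 and 91.7 ± 29.4 CPM. Ctcf, the insulator protein that binds between Igf2 and H19, averaged 107 ± 12.3, 115 ± 47.6 and 149 ± 50.5 CPM. Igfbp2 had counts in all meningeal libraries (8.83, 4.72 and 29.2 CPM), in Diaphragm replicate 3 (6.45 CPM) and in Skin replicate 2 (5.03 CPM).

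Since Igf2, H19 and Igf2r are imprinted, 30 other imprinted genes were examined, of which 26 had a row and 24 were tested. None was called in any comparison (edgeR). At an unadjusted p under 0.05 the counts were 4 in meninges against diaphragm, 9 in meninges against skin and 10 in diaphragm against skin, beside 10.1%, 13.8% and 11.8% of all genes. DESeq2 called 1, 6 and 4, beside 4.48%, 8.02% and 5.91%. The median log2 fold change of the 24 was 0.21, 2.91 and 2.06 in the same order, beside 0.05, 0.08 and 0.01 for all genes, and the same with genes that had no count in a tissue set at their bound. Libraries did not overlap for 4, 10 and 9 of the 24, beside 17.1%, 20.2% and 13.5% of all genes.

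Peg3, a zinc finger gene expressed from the paternal copy, had the highest average count level of them, at 123.5, 1141 and 948 CPM in Meninges replicates 1 to 3, 1215, 1153 and 539.8 CPM in the diaphragm libraries and 222, 119 and 129 CPM in the skin libraries. Meninges replicate 1 lay within the skin range, and the diaphragm and skin ranges were apart. The log2 fold change of Peg3 was 2.23 (SE 0.62, edgeR adjusted p = 0.109) in meninges against skin and 2.63 (SE 0.63, edgeR adjusted p = 0.157) in diaphragm against skin. Plagl1, a transcription factor of the imprinted network that can activate Igf2 in mice, had 7.64, 66.1 and 47.4 CPM, then 9.14, 32.4 and 13.7 CPM, then 0.542, 5.44 and 0.0914 CPM in the libraries of meninges, diaphragm and skin. The median centred level of the 24 genes was 0.29, 1.91 and 1.24 in Meninges replicates 1 to 3, 0.79, 0.29 and 0.74 in the diaphragm libraries and -1.78, -0.94 and -1.18 in the skin libraries, on the log2 CPM scale. For all genes tested it was 0.22, 0.27 and 0.25 in meninges, -0.07, 0.02 and 0.12 in diaphragm and -0.12, 0.11 and -0.3 in skin. Meninges replicate 1, at 0.29 beside 0.22, was thus close to the value of all genes. Skin was the lowest tissue for the 24 genes as it was for Igf2 and H19. Meninges replicate 1, lowest of its tissue for the 24 genes, had fewer fibroblast marker reads than replicates 2 and 3. The part of those cells was not tested.

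**Figure D5:**
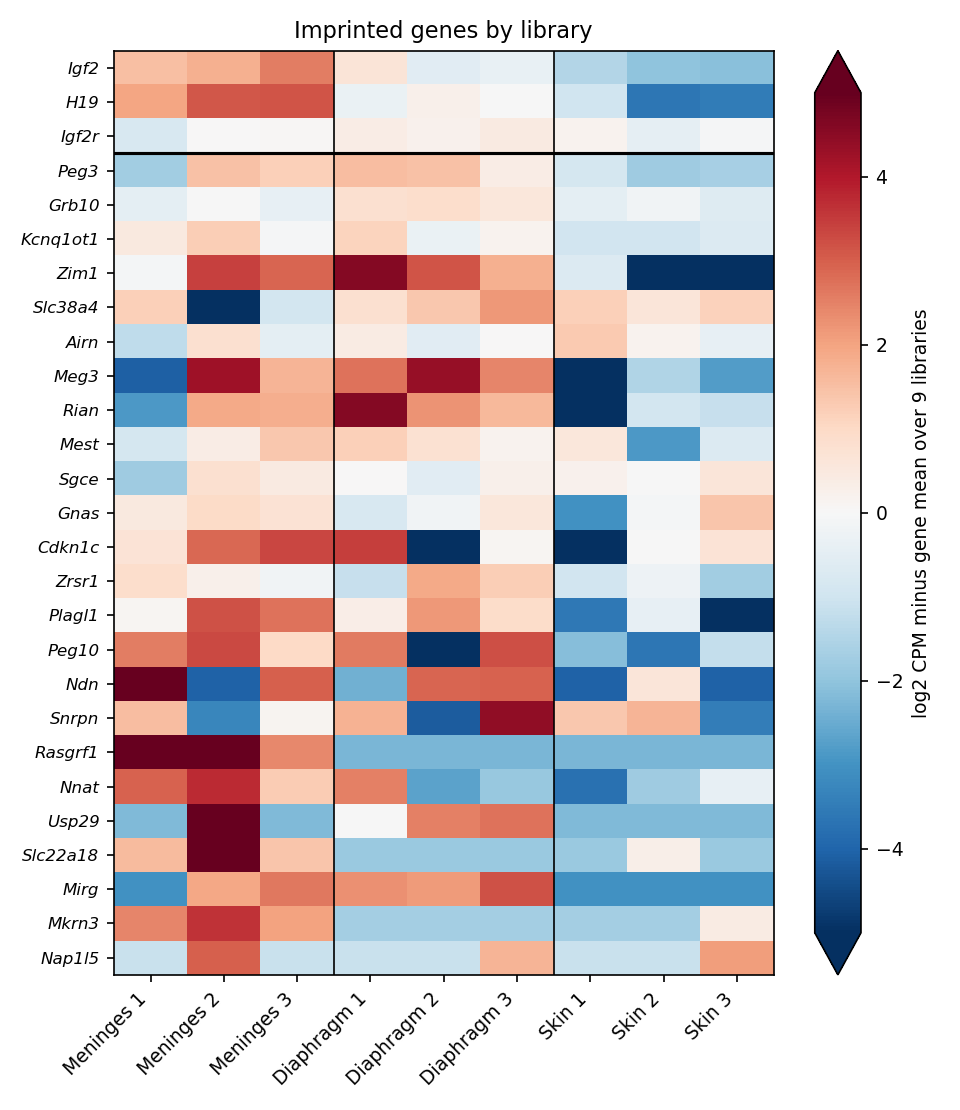
Log2 CPM minus the gene's mean over the 9 libraries for Igf2, H19 and Igf2r (above the line) and 24 other imprinted genes, ordered by average level; red is above and blue below the mean, and colours end at 5. The skin columns are mostly blue, and Igf2 and H19 are red in all 3 meningeal columns.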

How the data were processed

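The values used are the read counts per Ensembl gene as the authors deposited them, 1 column per library and all 9 used. Per the labels' protocols, RNA was extracted with a PicoPure kit and amplified with the Ovation RNA-Seq System V2 kit. Per the submitters' processing notes, FastQC, STAR and HTSeq were used on build mm9. Neither tool versions nor the annotation, strand setting or treatment of multi-mapping reads is given in those sources, so overlapping and antisense genes are uncertain.

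Blank symbols (7165 genes) and 22 symbols turned into dates were filled by Ensembl identifier from GENCODE M21, which left 87 genes unnamed. That annotation (GRCm38) also gave exon lengths, and RefSeq gave the sequences. Tests used edgeR (4.0.16, R 4.3.3). After filterByExpr (14831 genes kept) and TMM scaling, 1 quasi-likelihood fit of all 9 libraries had a mean for each tissue, with Benjamini-Hochberg adjustment over all genes and a threshold of 0.05. The SE is the absolute log2 fold change over the square root of the F statistic. The common biological coefficient of variation was 1.243. Bounds use a floor of 3 counts over a group and cover counting error only.

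The 10 genes and all lists were chosen with earlier results of these data known. Genes named are, per list, those called and the 2 of highest average level, and the 5 profiles nearest to Igf2, H19 and Igf1. Alternatives were DESeq2 1.42.0, its size factors, no filter, the replicate number as a block, each library left out, and Meninges replicate 1 alone. The fits were tested on simulated counts. No library repeated another: chi-square over its degrees of freedom was 325.6 to 533.9 between replicates. Python 3.11.15, pandas 2.3.3 and matplotlib 3.10.9 made tables and plots.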

Additional observations from a re-analysis of the deposited data

How the results depend on the processing

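Counts of genes called over the whole table depended on the test and the filter. They were 51, 196 and 6 in meninges against diaphragm, meninges against skin and diaphragm against skin. The DESeq2 Wald test gave 625, 1096 and 792 and the absence of a filter 298, 610 and 305. With Meninges replicate 1 alone they were 11, 58 and 82, and with each library left out they ran from 19 to 105, 74 to 236 and 2 to 58. The lowest came without Meninges replicate 3 in both meningeal comparisons and without Diaphragm replicate 1 for diaphragm against skin, and the highest for diaphragm against skin came without Skin replicate 2. Where Meninges replicate 1 stood alone it was assumed to vary like the other tissues. Of the 10 IGF genes, where 0, 4 and 0 were called, DESeq2 called 5 and 2 for meninges against diaphragm and diaphragm against skin and the fit without a filter 5 and 3. Meninges replicate 1 alone gave 1 against skin and 1 (Igfbp5, lower in diaphragm) for diaphragm against skin. Left-out libraries gave 0 to 2, 2 to 5 and 0 to 1. Against diaphragm, Igf1 and Igf2 were called higher in meninges without Meninges replicate 1, Igf2 and Igfbp7 without Diaphragm replicate 1, and H19 and Igf2 without Skin replicate 1. Without Skin replicate 1, H19 was also called for diaphragm against skin. Of the other pathway genes (0, 1 and 0), DESeq2 called 3, 7 and 3, the fit without a filter 1 in meninges against diaphragm and 4 in meninges against skin, and left-out libraries 0 to 1 in meninges against skin. Of the imprinted genes (0 in each), DESeq2 called 1, 6 and 4. Without a filter, 4 were called in each comparison with skin. Meninges replicate 1 alone gave 2 for diaphragm against skin, and left-out libraries 0 to 1 in both comparisons with skin (Peg3 without Meninges replicate 1, Zim1 without Skin replicate 1). The causes were not tested.

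Deviations of same-numbered libraries from their tissue means correlated at -0.021 to 0.051, and those of differently numbered libraries at -0.057 to 0.039. The labels do not say whether same-numbered libraries share animals or a batch, and correlations near 0 cannot settle it. With a replicate block the whole-table counts were 70, 231 and 16, and no count of the IGF, pathway or imprinted genes changed. Under DESeq2 size factors the whole-table counts were 49, 195 and 6, and those of the IGF, pathway and imprinted genes did not move. Of 30 fold changes of the IGF genes, 10 moved by more than the spread between libraries with Meninges replicate 1 alone, and 6 of 270 did so when 1 library was left out. Without length scaling, Igfbp5 made up 79.1%, 88.2% and 96.3% of binding protein counts in meninges, diaphragm and skin.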

Other observations

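Transcripts of insulin itself were counted in a few libraries and stayed under the filter on low counts. Ins2, which lies beside Igf2 on chromosome 7, had 92 and 277 reads in Meninges replicates 2 and 3, 8 in Skin replicate 2 and none in the other 6 libraries, and Ins1 had 52, 200 and 4 reads in the same libraries. Ins1 and Ins2 are close copies, so reads may be shared between them. Insrr, a receptor of the insulin receptor family, had 95 and 2061 reads in Meninges replicates 2 and 3 and none elsewhere. Igf2os, antisense to Igf2, had 17 and 1 reads in these libraries, where Igf2 had 22634 and 45994. These genes were chosen after their values were seen. Meninges replicates 2 and 3 are those with the higher fibroblast marker sums, and the source of the reads was not tested.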
